A study of Mus musculus with 8 samples.

Results

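The GIMAP genes encode GTPases of immunity-associated proteins, and 8 of them (Gimap1, Gimap3, Gimap4, Gimap5, Gimap6, Gimap7, Gimap8 and Gimap9) were followed in bone marrow progenitors of mice with and without Nfil3. They were chosen by name, as every gene whose symbol begins with Gimap among the 17097 genes that the array annotation gives to probe sets with a single symbol. The 8 genes had 9 probe sets, 2 of them for Gimap4, and all 8 were bright enough to be tested among 11583 genes. The groups were Nfil3 knockout (KO) preproNK, wild-type (WT) preproNK, KO ALP and WT ALP, with 2 arrays each. PreproNK denotes prepro NK cells, progenitors on the way to natural killer (NK) cells, and ALP denotes the earlier all-lymphoid progenitors. All 4 groups came from mice with an Id2-GFP reporter, in which fluorescence follows the Id2 gene, and were sorted out of marrow depleted of lineage-positive cells and lysed without culture. Replicate 1 and replicate 2 were processed on different dates. The labels do not say how many animals gave a sample, how old they were or which part of Nfil3 was deleted, so the p-values below stand for the spread between arrays, part of which may be technical.

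GIMAP proteins share a GTP-binding domain of the AIG1 type, and several are anchored in intracellular membranes. Their genes lie side by side in vertebrate genomes and are used mainly in lymphocytes. Mice or rats that lack Gimap5 lose peripheral T cells, and mice without functional Gimap5 also lack NK cells, so the family is best known for the survival of lymphocytes. In mouse the cluster spanned 124 kb of chromosome 6 in the GRCm38.p6 RefSeq annotation, from 48647186 to 48770851, with the genes in the order Gimap8, Gimap9, Gimap4, Gimap6, Gimap7, Gimap1, Gimap5 and Gimap3. Gimap6 and Gimap3 lay on the minus strand and the other 6 on the plus strand.

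The 250 bases before the transcript start that RefSeq's promoter table lists are shown for 3 of these genes, because Gimap3 and Gimap4 had the largest differences between the populations and Gimap9 the smallest. They are RefSeq sequences of build GRCm38.p6, each 5′ to 3′ on the strand of its gene, at chr6:48770852-48771101 for Gimap3 (minus strand), chr6:48684328-48684577 for Gimap4 and chr6:48675885-48676134 for Gimap9 (both plus strand). For Gimap9, and for Gimap8 below, the listed start lies inside the gene span given above, so these windows reach past the first base of the gene. Capitals mark matches to any of 6 short motifs, searched on both strands.
Gimap3: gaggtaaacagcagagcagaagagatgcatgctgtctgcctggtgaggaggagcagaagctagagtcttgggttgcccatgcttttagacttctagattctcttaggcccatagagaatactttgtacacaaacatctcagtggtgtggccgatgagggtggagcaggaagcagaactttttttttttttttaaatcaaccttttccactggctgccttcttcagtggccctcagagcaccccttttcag
Gimap4: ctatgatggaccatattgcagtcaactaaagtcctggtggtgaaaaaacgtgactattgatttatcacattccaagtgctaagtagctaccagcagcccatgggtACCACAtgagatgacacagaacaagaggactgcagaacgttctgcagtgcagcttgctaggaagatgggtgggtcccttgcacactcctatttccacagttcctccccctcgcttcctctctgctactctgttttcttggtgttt
Gimap9: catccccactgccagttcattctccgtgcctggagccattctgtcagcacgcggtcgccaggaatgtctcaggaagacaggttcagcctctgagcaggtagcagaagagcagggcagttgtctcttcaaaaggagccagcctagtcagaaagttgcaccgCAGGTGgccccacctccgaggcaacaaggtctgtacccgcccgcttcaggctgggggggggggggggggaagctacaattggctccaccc
The motifs were those of RUNX, ETS, T-box and GATA factors, an E-box of E proteins and a pattern of bZIP factors of the NFIL3 type. Gimap4 held 1 RUNX match, which begins 145 bases before the listed start, and Gimap9 held 1 E-box match, which begins 90 bases before its listed start, while none of the 6 patterns was found in the Gimap3 window. Over the 9 windows of the 8 genes (Gimap8 has 2, which overlap), the RUNX letters TGTGGT occurred in 3 (Gimap4, Gimap7 and Gimap1), against 14.05% of 32851 windows of all genes. The ETS letters GGAAGT occurred in 2 (Gimap6 and Gimap5), against 19.7% of all windows, and the T-box letters GGTGTGA in both overlapping windows of Gimap8, against 3.33%. The T-box match is the same site in both Gimap8 windows, so it stands for 1 gene. The E-box letters CAGGTG, found for Gimap9, were in 17.2% of all windows. The NFIL3-type pattern TTANNTAA was in 0 of the 9 windows and 5.43% of all windows, and the GATA factor letters AGATAA were in 0 of the 9 and 9.99% of all. These matches describe letters in the windows, not bound sites.

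Levels are log2 expression values made by the authors, on which a difference of 1 is a doubling. Their medians over all 45141 probe sets lay between 3.93 and 4.27 on the 8 arrays, and values under the median of an array are taken as near background there. One array, WT preproNK replicate 2, stood apart. It correlated with the other 7 arrays at 0.504 to 0.747 over the tested genes, its values had an SD of 1.39 against 1.55 to 1.88, and only 310 tested genes had a level of 8 or more, while the others had 682 to 1498 such genes. Nfil3 values were 3.41 to 4.15 on the 4 KO arrays and 4.74 to 6.89 on the 4 WT arrays. The mean of 9 measured early lymphoid progenitor markers was 4.13 to 4.48 on preproNK arrays and 6.88 to 7.81 on ALP arrays. Of the NK cell markers, Ncr1, an activating receptor of mature NK cells, was under the median on all 8 arrays. In bulk samples such as these, fewer cells of a type and less RNA per cell cannot be told apart.

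**Figure D1:**
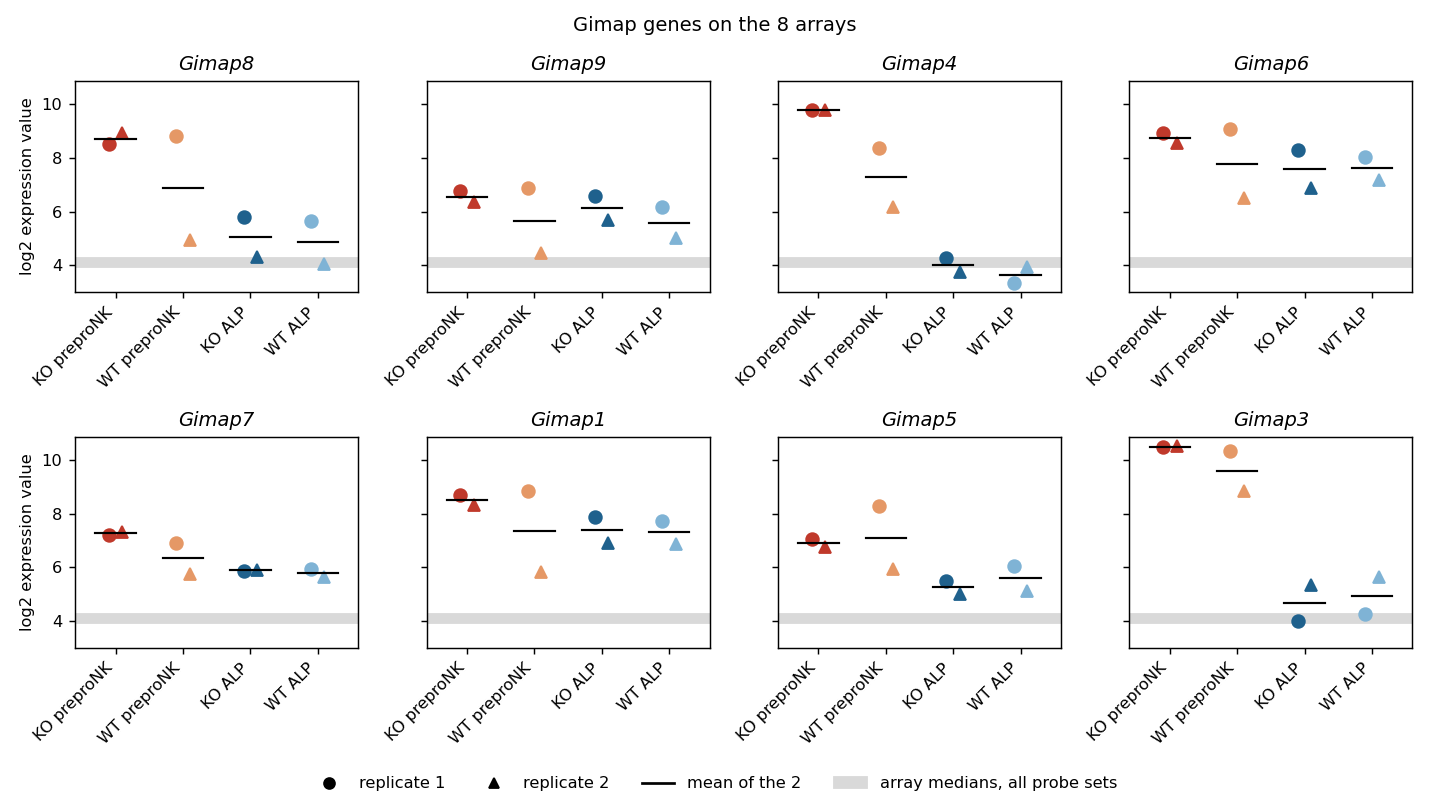
Log2 expression values (y axis) of the 8 Gimap genes in the 4 groups (x axis), in their order along the chromosome. Circles are replicate 1, triangles replicate 2, black lines the mean of both, and the grey band spans the array medians over all probe sets. Gimap4 and Gimap3 are at 6.16 or more on every preproNK array and at 5.63 or less on every ALP array, and the WT preproNK replicate 2 array is the lower of its group for all 8 genes.

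The first question was how the family differs between preproNK and ALP. Gimap3 and Gimap4 rose in preproNK by more than 4 log2 units averaged over both genotypes, from levels in ALP at or not far above background. None of the other 6 genes passed the test in that comparison, although all 8 had higher mean values in preproNK in each genotype. The test was limma on all 8 arrays, with Benjamini-Hochberg adjustment over the 11583 genes.

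Gimap3 encodes a protein of the endoplasmic reticulum that in mouse affects the segregation of mitochondrial DNA in blood cells, and its human counterpart is a pseudogene. Its values were 10.47 and 10.52 on the KO preproNK arrays, 10.33 and 8.86 on the WT preproNK arrays, 3.99 and 5.35 on the KO ALP arrays and 4.25 and 5.63 on the WT ALP arrays (replicate 1 first). Every preproNK array was above every ALP array by more than 3 log2 units, and within ALP the genotypes overlapped. The log2 difference between preproNK and ALP was 5.83 (SE 0.69, limma adjusted p = 0.00891) in KO and 4.65 (SE 0.69, adjusted p = 0.0933) in WT, which are 56.7-fold and 25.1-fold. Averaged over the genotypes it was 5.24 (SE 0.49, limma adjusted p = 0.00266), the 4th highest of 11583 tested genes. With the replicate number in the model, the difference in WT passed the test (limma adjusted p = 0.0378).

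Gimap4, whose loss in mouse delays the death of T cells after a death signal, had values of 9.79 and 9.78 on the KO preproNK arrays, 8.39 and 6.16 on the WT preproNK arrays, 4.27 and 3.75 on the KO ALP arrays and 3.35 and 3.93 on the WT ALP arrays. Both WT ALP arrays and 1 KO ALP array were under the array median, so the ALP level is near background. The KO preproNK arrays differed by 0.01 from each other and lay above both WT preproNK arrays. Between preproNK and ALP the log2 difference was 5.77 (SE 0.68, limma adjusted p = 0.00862) in KO and 3.63 (SE 0.68, adjusted p = 0.148) in WT. With ALP values under the array median set to it, these are at least 49.96-fold and at least 9.37-fold. Averaged over the genotypes the difference was 4.70 (SE 0.48, limma adjusted p = 0.00434), the 8th highest of the tested genes. The second Gimap4 probe set, which had the lower mean level, differed by 6.01 in KO and 2.94 in WT.

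Of the other genes, Gimap8 had the largest difference. Gimap8 is the family member with several GTP-binding domains in 1 protein. It was at 8.51 and 8.92 on the KO preproNK arrays, 8.84 and 4.96 on the WT preproNK arrays, 5.82 and 4.30 on the KO ALP arrays and 5.67 and 4.05 on the WT ALP arrays. The preproNK and ALP arrays were apart in KO and overlapped in WT, where the WT preproNK replicate 2 array fell among the ALP values. The log2 differences were 3.66 (SE 1.18, limma adjusted p = 0.262) in KO and 2.04 (SE 1.18, adjusted p = 0.847) in WT. With the replicate number in the model, its mean over both genotypes of 2.85 passed the test (limma adjusted p = 0.0254).

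Gimap5, the member tied to T and NK cell survival, was at 7.04 and 6.75 in KO preproNK, 8.27 and 5.92 in WT preproNK, 5.50 and 5.003 in KO ALP and 6.05 and 5.13 in WT ALP. Its mean difference over both genotypes was 1.57 (SE 0.52, limma adjusted p = 0.187), and with the replicate number in the model the adjusted p was 0.0378. Gimap7, which in human forms heterodimers that stimulate GTP hydrolysis by other members, was at 7.22 and 7.32 in KO preproNK, 6.90 and 5.76 in WT preproNK, 5.87 and 5.89 in KO ALP and 5.95 and 5.63 in WT ALP. These are the closest ALP values of the family, with a range of 5.63 to 5.95 over 4 arrays. The mean difference of Gimap7 was 0.97 (SE 0.31, limma adjusted p = 0.18).

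Gimap1, Gimap6 and Gimap9 differed least between the populations. Gimap1 is needed for mature T and B cells in mouse. It was at 8.71 and 8.32 in KO preproNK, 8.86 and 5.84 in WT preproNK, 7.86 and 6.91 in KO ALP and 7.74 and 6.85 in WT ALP. The WT preproNK replicate 2 array held the lowest of these 8 values. Gimap6, which binds an autophagy protein of the GABARAP family, was at 8.95 and 8.58 in KO preproNK, 9.09 and 6.50 in WT preproNK, 8.29 and 6.88 in KO ALP and 8.04 and 7.19 in WT ALP. Gimap9 was at 6.78 and 6.35 in KO preproNK, 6.87 and 4.44 in WT preproNK, 6.60 and 5.68 in KO ALP and 6.16 and 5.02 in WT ALP. For both Gimap6 and Gimap9 the array that stood apart was again the lowest of the 8, and the other 7 lay in a range of about 2 log2 units. The mean differences over both genotypes were 0.59 (SE 0.64) for Gimap1, 0.68 (SE 0.60) for Gimap6 and 0.24 (SE 0.56) for Gimap9, with limma adjusted p from 0.782 to 0.957.

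**Figure D2:**
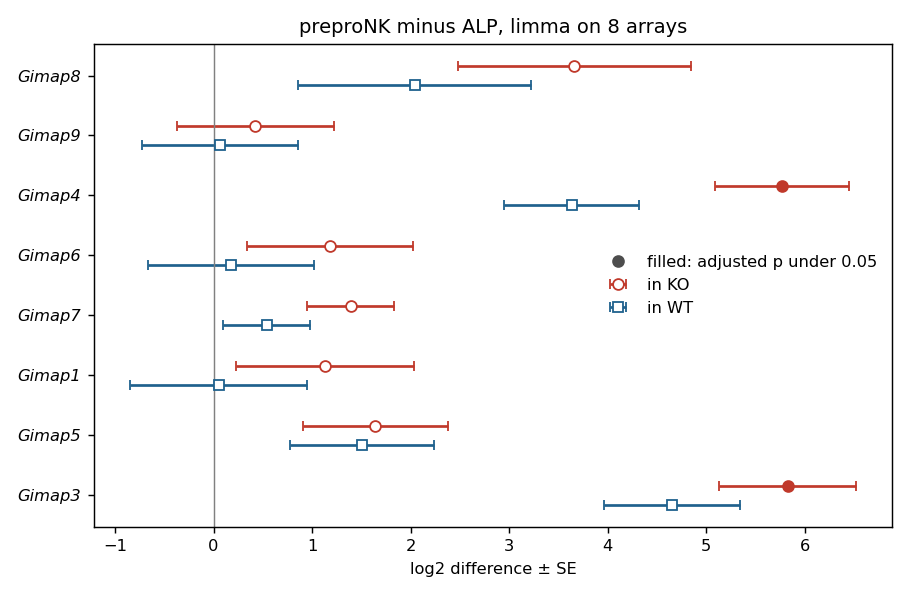
Log2 difference between preproNK and ALP (x axis) for each Gimap gene (y axis, in chromosome order), in KO (red circles) and in WT (blue squares), with standard errors from limma; filled symbols passed the test over all genes. Gimap3 and Gimap4 stand apart at 5.83 and 5.77 in KO and at 4.65 and 3.63 in WT, and none of the WT differences is filled.

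Over the family, 2 of 8 genes were called higher and 0 lower in KO preproNK against KO ALP, where 1.22% of all tested genes were called higher. The median log2 difference of the 8 genes was 1.52, against 0.00 over all tested genes. In WT, 0 of 8 genes were called, against 0.0345% of all tested genes called higher, with a median of 1.02 against -0.05. Of all tested genes 315 (2.72%) had an unadjusted p under 0.05 and a higher level in WT preproNK, among them Gimap3 and Gimap4, and with the replicate number in the model 1 of 8 (Gimap3) was called, against 0.578% of all tested genes in either direction. Averaged over the genotypes 2 of 8 were called, against 1.77% of all tested genes called higher, and with the replicate number in the model 4 of 8 were, against 7.36% of all tested genes called in either direction. In WT all 8 genes had a positive difference in the replicate 1 pair (0.71 to 6.07) and 5 of 8 did in the replicate 2 pair (-1.02 to 3.23). In KO all 8 differences were positive in both pairs (0.17 to 6.48 and 0.67 to 6.02). Both preproNK arrays were above both ALP arrays for 7 of 8 genes in KO (all but Gimap9), against 22.2% of all tested genes, and for 2 of 8 in WT (Gimap3 and Gimap4), against 9.73%. All 4 preproNK arrays were above all 4 ALP arrays for Gimap3 and Gimap4, a pattern of 4.52% of all tested genes. No Gimap gene was called in KO when any 1 of the 4 KO arrays was left out, a change that left at most 2 calls over all genes. The means over both genotypes of Gimap3 and Gimap4 passed the test without any 1 of the 8 arrays. Without WT preproNK replicate 2, the median of the 8 genes in the mean of both genotypes was 1.75, against -0.01 over all tested genes. In WT alone the median without that array was 2.12, against 0.01 over all tested genes.

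Whether the stage difference itself depended on the genotype was tested as the interaction. It was called for 0 of 8 Gimap genes and 0% of all tested genes. The unadjusted p was under 0.05 for 183 tested genes (1.58%) and for 0 of the Gimap genes. The interaction was 2.14 (SE 0.96) for Gimap4 and 1.17 (SE 0.98) for Gimap3, and the other 6 lay between 0.14 (SE 1.04, Gimap5) and 1.62 (SE 1.67, Gimap8), each with a limma adjusted p of 1. The second Gimap4 probe set had an interaction of 3.07 (SE 1.19, unadjusted p = 0.0341 by limma) and was not called. With the replicate number in the model Gimap4 had an unadjusted p of 0.037 by limma and was not called. In that model 357 tested genes had an unadjusted p under 0.05. The stage differences were thus not shown to differ between KO and WT. Without WT preproNK replicate 2 the median interaction of the 8 genes was -0.31, in place of 1.04.

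The profiles of the members fell into like and unlike ones. Likeness was measured as the mean absolute difference between 2 profiles over the 8 arrays, each centred on its own mean. Gimap6 and Gimap1 were the most alike, at 0.128 log2, followed by Gimap9 and Gimap6 at 0.274. Gimap9 and Gimap3 were the least alike, at 2.50. Adjacent genes were not always alike, since Gimap9 and Gimap4, neighbours on the chromosome, differed by 2.23. Probe sets of close paralogs can share target sequence, which was not tested, and such sharing would make profiles more alike. The 8 arrays include WT preproNK replicate 2, which was the lower of its group for all 8 genes. The part of that array in the likeness was not tested. Distances between pairs of other genes were not measured, so it is not known how common such values are.

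**Figure D3:**
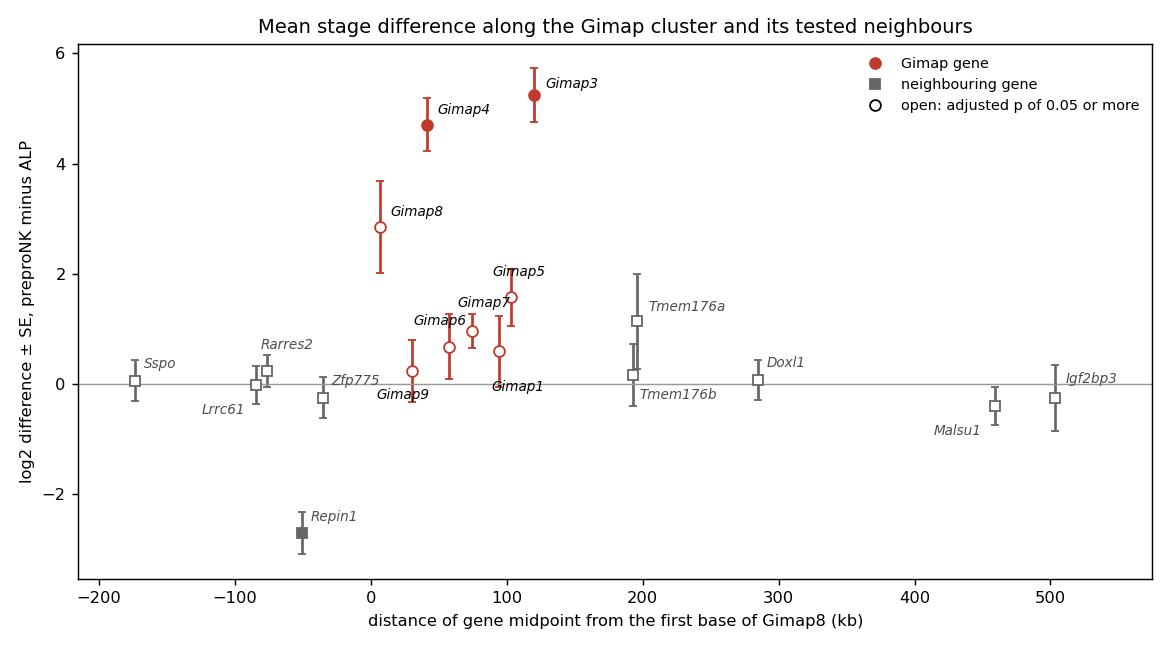
Mean log2 difference between preproNK and ALP over both genotypes, with its standard error (y axis), against the distance of each gene's midpoint from the first base of Gimap8 (x axis, kb), for the 8 Gimap genes (red circles) and the 5 nearest tested protein-coding genes on each side (grey squares). Filled symbols passed the test over all genes, which among these are Gimap3 and Gimap4, both higher, and Repin1, lower.

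None of the genes that flank the cluster was called higher. Of the 10 nearest tested protein-coding genes, 5 on each side, 1 was called lower in the mean of both genotypes, where 1.61% of all tested genes were called lower. Repin1, a zinc finger gene 48.1 kb before the cluster, averaged 4.25 in KO preproNK and 4.69 in WT preproNK, against 7.39 in KO ALP and 6.97 in WT ALP, and its mean difference was -2.71 (SE 0.39, limma adjusted p = 0.0119). Tmem176b and Tmem176a, membrane protein genes 63.0 and 70.6 kb after the cluster, differed by 0.16 (SE 0.56) and 1.14 (SE 0.86). The median over the 10 neighbours was 0.02, against -0.01 over all tested genes.

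Markers of other lymphocytes were also higher in KO preproNK. Of 14 tested mature T cell markers, 11 were called higher in KO preproNK against KO ALP, where 1.22% of all tested genes were, and 11 in the mean of both genotypes, but 0 of 14 in WT, where 0.0345% of all tested genes were. Among the 11 called in KO was Cd3e, a chain of the T cell receptor complex (7.12, SE 0.61, limma adjusted p = 0.00386). The mean level of the 15 measured T cell markers was 7.59 to 7.97 in KO preproNK, 5.69 to 6.50 in WT preproNK, 4.59 to 4.67 in KO ALP and 4.74 to 4.83 in WT ALP. Of 10 tested NK cell markers 4 were called higher in KO, 3 in the mean of both genotypes and 0 in WT, and those called in KO include Tbx21, which encodes the factor T-bet (5.55, SE 0.44, limma adjusted p = 0.00314). The mean of the 11 measured NK markers was 6.52 to 6.57 in KO preproNK, 4.98 to 5.31 in WT preproNK, 4.31 to 4.34 in KO ALP and 4.33 to 4.39 in WT ALP. In both lists KO preproNK was highest, as it was by group mean for every Gimap gene but Gimap5. On the replicate 1 preproNK arrays the T cell mean was 7.97 in KO and 6.50 in WT, and the NK mean 6.57 and 5.31. In that pair only 3 of 8 Gimap genes were higher in KO, against 51.3% of all tested genes. All 8 were higher in the replicate 2 pair, which holds the array that stood apart, against 57.6%. In KO against WT preproNK 0 of the 14 T cell and 0 of the 10 NK markers were called, as were 0% of all tested genes. The 5 measured markers of group 2 innate lymphoid cells averaged 6.02 to 6.27 in KO preproNK, 5.02 to 7.15 in WT preproNK, 3.93 to 4.11 in KO ALP and 4.10 to 4.19 in WT ALP, with Il13 under the median on all arrays. Of 3 tested 0 were called in KO and 0 in WT, and 1 was called higher in the mean of both genotypes, Il17rb, a receptor chain for interleukin 25 (3.03, SE 0.47, limma adjusted p = 0.0173). Endothelial cells also use several GIMAP genes, but their 10 markers averaged 3.79 to 4.40 over the 8 arrays, near the array medians, and Vwf and Plvap were under the median on all of them. Of the 6 tested 0 were called higher in any comparison, and Egfl7, a secreted protein gene, was called lower in the mean of both genotypes (-2.05, SE 0.38, limma adjusted p = 0.0314). In that mean 3 of the 6 had a positive difference, the largest that of Cdh5 (1.12, SE 0.32, limma adjusted p = 0.121). In KO alone Cdh5 differed by 2.16 (SE 0.45, limma adjusted p = 0.0691). The 7 measured B cell markers averaged 4.38 to 4.91 in preproNK and 4.16 to 4.56 in ALP, with Ms4a1 and Cd22 under the median on all arrays and 1 of 4 tested, the kinase gene Blk, called higher in KO (4.74, SE 0.55, limma adjusted p = 0.00851). Egfl7, Cdh5 and Blk are named after their values were seen. Of the myeloid and erythroid markers 0 of 7 and 0 of 5 were called in KO, and 6 of 9 early lymphoid markers were called lower, against 0.535% of all tested genes. The part of other cell types in the Gimap differences was not tested.

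The genes whose profile over the 8 arrays was most like the mean of the 8 Gimap profiles were Ptpn22, at a mean absolute difference of 0.0916 log2, and Tnfsf14, at 0.124. Ptpn22 encodes a phosphatase that restrains T cell receptor signals and Tnfsf14 the ligand LIGHT. Next came Irf2bpl, 1300002E11Rik, Cd82 (a tetraspanin), Grap2 (the T cell adaptor Gads), Gpr132 (a G protein-coupled receptor), Cc2d1a, Dennd2d and Lilrb4a (an inhibitory receptor), at 0.147 to 0.205. Ptpn22 averaged 7.65 in KO preproNK, 6.42 in WT preproNK, 5.09 in KO ALP and 4.91 in WT ALP. The members themselves were at 0.466 (Gimap5) to 1.57 (Gimap3) from their mean profile. The list was drawn from the same 8 arrays and carries no test.

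Reported partners of GIMAP proteins, mostly BCL2 family members and autophagy genes, formed a further list. None of its 13 tested members was called in KO or in WT, and 1 was called in the mean of both genotypes. That gene was Gabarapl1, an autophagy protein of the GABARAP family, which was lower in preproNK by limma (-1.93, SE 0.41, adjusted p = 0.0496). Gabarapl2, the member of that family reported to bind GIMAP6, differed by 1.00 (SE 0.53, limma adjusted p = 0.49). Bcl2, an inhibitor of cell death, differed by -0.73 (SE 0.50, limma adjusted p = 0.657), and Bcl2l1 by 0.51 (SE 0.23, limma adjusted p = 0.392). In that mean 8 of the 13 had a positive difference.

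The second question was how loss of Nfil3 bears on the family within preproNK. Gimap4 had the largest difference between KO and WT preproNK of the 8 genes, and the only one that was above 1 in both replicate pairs, but no Gimap gene passed the test. Its differences were 1.40 (replicate 1 pair) and 3.61 (replicate 2 pair). The mean was 2.51 (SE 0.68, unadjusted p = 0.00641, adjusted p = 0.613 by limma), the 52nd highest of the tested genes. Its second probe set differed by 2.96 (SE 0.84, limma adjusted p = 0.628), with pair values of 1.54 and 4.38. The other 7 genes differed little or in the other direction in the replicate 1 pair. Gimap7 and Gimap3 had differences of 0.32 and 0.15 there, Gimap9, Gimap6, Gimap1 and Gimap8 lay between -0.09 and -0.33, and Gimap5 was lower in KO by this pair's value of -1.24. In the replicate 2 pair, which holds the WT preproNK array that stood apart, all 8 genes were higher in KO, by 0.83 (Gimap5) to 3.97 (Gimap8).

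**Figure D4:**
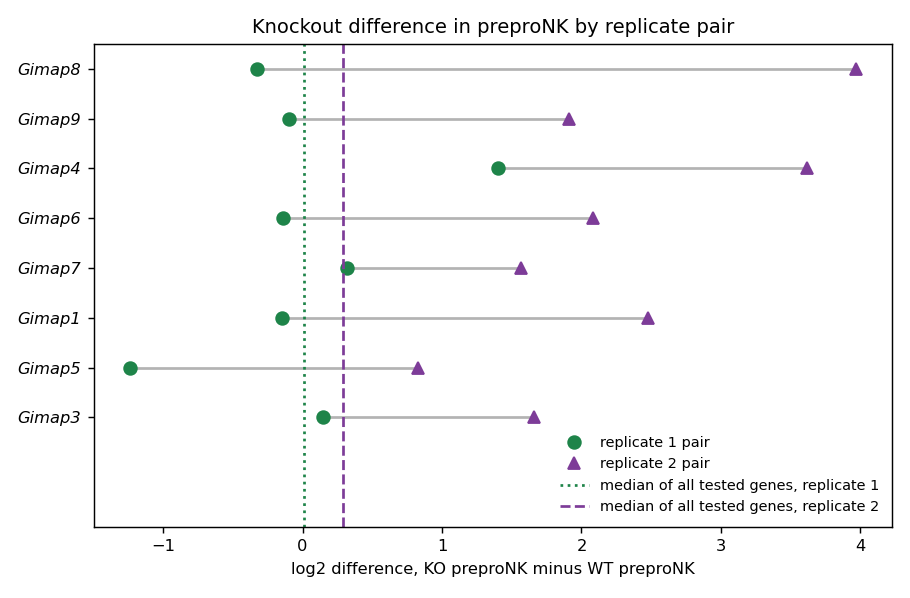
Log2 difference between KO and WT preproNK (x axis) for each Gimap gene (y axis), for the replicate 1 pair (green circles) and the replicate 2 pair (purple triangles), with the medians of all tested genes as vertical lines at 0.01 and 0.29. The triangles lie right of the circles for all 8 genes, and Gimap4 alone is above 1 in both pairs.

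Over the family, the median difference between KO and WT preproNK was -0.12 for replicate 1 and 2.00 for replicate 2, against 0.01 and 0.29 over all tested genes. The differences of all genes in the second of these pairs went with level. Ordered by their level on the WT preproNK replicate 1 array, which is not in that pair, the 2896 brightest genes had a median of 1.55 and the 2896 dimmest one of -0.64. Of the 8 Gimap genes 6 are among those brightest, all but Gimap7 and Gimap9. Of these 6, only Gimap5 (0.83) lay below the median of 1.55, and the rest lay above it, from 1.66 (Gimap3) to 3.97 (Gimap8). Gimap7 (1.56) and Gimap9 (1.91) were among the 2895 next brightest genes, and both lay above the median of those, 0.68. The part of this shift in the Gimap differences was not tested. By limma 0 of 8 genes were called, against 0% of all tested genes, and 1 of 8 (Gimap4) had an unadjusted p under 0.05, against 5.4% of all tested genes. In Gimap4, Gimap7 and Gimap3 both KO arrays were above both WT arrays, a pattern that 22.7% of all tested genes shared. With the replicate number in the model still 0 of 8 were called, against 0.0863% of all tested genes, and Gimap4 had an adjusted p of 0.209. Without WT preproNK replicate 1, which leaves the array that stood apart as the only WT preproNK sample, 6 of the 8 were called higher along with 2013 genes in all. Without WT preproNK replicate 2 none was, the median of the 8 was -0.21, and Gimap4 differed by 1.39.

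In ALP, where the question was the same for the earlier progenitor, KO and WT values were close. The mean log2 differences ran from -0.34 (SE 0.73, Gimap5) to 0.55 (SE 0.80, Gimap9), with a median of 0.09 against 0.06 over all tested genes. None of the 8 was called, against 0% of all tested genes, and none had an unadjusted p under 0.05 by limma, against 0.0432% of all tested genes (5 genes). The sign was the same in both pairs for 5 genes: Gimap5 (-0.56 and -0.13) and Gimap3 (-0.26 and -0.28) had lower values in KO, and Gimap9 (0.44 and 0.67), Gimap8 (0.15 and 0.25) and Gimap1 (0.12 and 0.052) higher ones. In no Gimap gene were the KO and WT arrays of ALP apart from each other. The share of all tested genes with such a gap in ALP was not counted. With standard errors of 0.44 to 1.18, these values do not show that the genotypes were alike.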

How the data were processed

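RNA of sorted progenitors was amplified for 23 cycles with a whole transcriptome kit, labelled with biotin and hybridised to 8 one-colour Affymetrix arrays, per the labels' protocols. Each probe set has a deposited log2 value on each array, made by the authors (the submitters' processing notes name RMA and Partek). Sources used here do not give versions or settings, and the log2 scale was read from the values. RMA equalizes probe distributions between arrays, yet the deposited SDs differ between arrays (1.39 to 1.88). No detection calls come with the values, and the number of arrays limits the precision.

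Gene names came from the platform annotation, and only the 28898 probe sets with 1 symbol were used. For a gene with several probe sets the one of highest mean stood for it, and it was tested if above the array median on at least 2 of 8 arrays. With limma 3.58.1 (R 4.3.3; lmFit and eBayes, 4 residual degrees of freedom), 1 model with a mean per group covered all 8 arrays. Tests were two-sided, adjusted by Benjamini-Hochberg over 11583 genes and called at an adjusted p under 0.05, in 6 comparisons. The fit was tested on simulated data. The series design ties the replicate number to a date of processing, so the number pairs the samples, and deviations from group means of the replicate 1 arrays correlated at 0.149 to 0.807 between groups.

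Named non-members were the 10 most alike genes, 5 neighbours on each side, the called partner of GIMAP proteins and a few genes per marker list. The partners Gabarapl2, Bcl2 and Bcl2l1 were named besides these. Members, lists and alternatives were chosen with earlier results of these data known. Alternatives were the replicate number as a block, each array left out, both together, no filter, quantile normalization, every probe set or their mean, and, chosen after seeing the data, KO arrays alone and values under the array median set to it. Some listed genes, among them Lck, Il1rl1, Areg, Hbb-b1, Il7r, Bax and Map1lc3b, were not analysed here. Promoter letters were read from RefSeq windows, 250 bases before each listed transcript start. The order of genes by level on WT preproNK replicate 1 was chosen after seeing the data.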

Additional observations from a re-analysis of the deposited data

Results flagged for a closer look

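Gimap3 had a knockout difference of opposite sign in the 2 populations in every replicate pair. How many of all tested genes share this pattern was not counted. KO was above WT in preproNK by 0.15 and 1.66 log2 and had differences of -0.26 and -0.28 in ALP. The difference between these effects was 1.17 (SE 0.98) by limma's interaction term, with an adjusted p of 1, and without WT preproNK replicate 2 it was 0.44.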

How the results depend on the processing

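The number of Gimap genes called depended on the arrays used more than on filters. In KO preproNK against KO ALP it was 2, where 203 of 11583 tested genes were called, and 5 with KO arrays alone, where 1234 were. It was lower without any 1 KO array and higher without any 1 WT preproNK array. The count over all tested genes moved in the same directions. In WT it was 0, but 2 after quantile normalization (Gimap3 and Gimap4), 1 with the replicate block, 4 with the block and without WT preproNK replicate 2, and 0 to 3 without 1 array. For the mean of both genotypes it was 2, but 4 with the block, 7 with the block and without that array, and 2 to 5 without 1 array. In KO against WT in preproNK it was 0, and 0 to 6 without 1 array. In ALP and for the interaction it was 0 in every setting run. The block changed no other Gimap count. Over all tested genes, 11 were called in WT, 70 after quantile normalization and 67 with the block. For the mean of both genotypes 391 were called, and 852 with the block. Wherever leaving out an array raised the Gimap count in WT, in that mean or in KO against WT preproNK, the count over all tested genes rose too. These rises are thus not particular to the Gimap genes. With 1 array left out, the median Gimap difference between preproNK and ALP ran from 1.40 to 1.89 in KO. That median ran from 0.03 to 2.12 in WT and from 0.83 to 1.75 in the mean of both genotypes. With the block and without WT preproNK replicate 2 it was 1.79 in WT and 1.63 in that mean. The cause of these changes was not tested, beyond the arrays that each setting removes.

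Of 734 single-gene values under an alternative 47 changed sign. For Gimap4 1 did, its second probe set at -0.12 for KO against WT in ALP. With the block and without WT preproNK replicate 2, Gimap3 was at -0.29 for KO against WT in preproNK, and the interactions of Gimap9, Gimap1, Gimap5 and Gimap3 were -0.44, -0.059, -0.76 and -0.021. After quantile normalization Gimap7 and Gimap1 were at -0.038 and -0.14 for KO against WT in ALP, Gimap9 at -0.12 for preproNK against ALP in WT, and the Gimap5 interaction at -0.18.

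Values with 1 array left out that changed sign had these ranges. For KO against WT in preproNK they were -0.12 to 3.76 (Gimap8), -0.31 to 2.12 (Gimap9), -0.32 to 2.27 (Gimap6), -0.35 to 2.68 (Gimap1) and -1.38 to 0.97 (Gimap5). In ALP they were -0.61 to 1.01 (Gimap8), -0.0198 to 1.13 (Gimap9), -0.74 to 0.67 (Gimap6), -0.073 to 0.25 (Gimap7), -0.39 to 0.57 (Gimap1), -0.80 to 0.12 (Gimap5) and -0.96 to 0.41 (Gimap3). For preproNK against ALP they were -0.037 to 0.88 (Gimap9) in KO, and in WT -1.15 to 1.28 (Gimap9), -1.12 to 1.47 (Gimap6), -0.032 to 1.11 (Gimap7) and -1.46 to 1.56 (Gimap1). In the mean of both genotypes they were -0.36 to 0.85 (Gimap9) and -0.17 to 1.35 (Gimap1). For the interaction they were -0.32 to 3.56 (Gimap8), -0.86 to 1.57 (Gimap9), -0.29 to 2.30 (Gimap6), -0.43 to 2.59 (Gimap1) and -1.04 to 1.31 (Gimap5). Where an array was left out, the lone array of its group was assumed to vary like the other groups.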
